A study of Mus musculus with 9 samples.

Results

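The tumors described here are the 3 control tumors of an experiment on 9 subcutaneous KLN205 tumors. They were chosen by their label, sh Control, and are called replicates 1, 2 and 3 as the labels number them. KLN205 is a mouse lung squamous carcinoma line of the DBA/2 strain. The cells carried a SMART inducible lentiviral shRNA with a control sequence and were grown under the flank skin of female wild-type DBA/2 mice, so that both carcinoma and host were of 1 strain. Doxycycline was given in the drinking water once the mean tumor volume had reached 100 mm3, and it was given to all groups of the experiment, the controls included. RNA was taken on day 50 from 1 chunk of 30 to 50 mg per tumor. The 6 tumors with an shRNA against Tmprss11b were not analysed here, so no effect of the knockdown is described. All values come from 1 line under 1 condition, and each tumor contributed 1 library.

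The cells of stratified squamous epithelium rest on a basal layer that makes keratin 5 and keratin 14 under the transcription factor p63. As they move up they switch to keratins 1 and 10 and then build the cornified envelope, while injured or fast-growing squamous epithelium makes keratins 6 and 16. Simple epithelia such as those lining glands and airways make keratins 7, 8, 18 and 19 in their place. A tumor grown under the skin also contains macrophages, fibroblasts and vessels of the host, and lies against muscle, fat and skin.

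The table listed 19481 genes. The libraries held 22429848, 23719323 and 23445880 counts, and 3 counts, the lowest level treated as measured, amounted to 0.132, 0.129 and 0.127 CPM, which is the count scaled to the library total after TMM normalization. At least 1 CPM was reached in all 3 tumors by 13155 genes, and 853 genes had no count in any of them. Levels of the same gene are compared between tumors in CPM. Levels of different genes are compared in TPM, which also divides by gene length. No test was made, since there is 1 group, and errors are the SD over 3 tumors. In bulk tissue, fewer cells of a type and less RNA per cell cannot be told apart.

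The epithelial program of these tumors was led by simple keratins rather than by the keratins of squamous epithelium. Krt7 stood at 1700.1 ± 316 TPM (SD, n = 3), Krt19 at 1585 ± 136 TPM, Krt18 at 1444 ± 337 TPM and Krt8 at 1257 ± 329 TPM. Krt14, the partner of keratin 5 in basal cells, had 547, 237 and 107 TPM in replicates 1, 2 and 3. Krt6a, made in growing squamous epithelium, reached 213, 304 and 127 TPM and was above Krt14 in replicates 2 and 3. In each of the 3 tumors every one of the 4 simple keratins was therefore above both Krt14 and Krt6a.

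Krt5 separated the tumors. It was counted 2052, 11 and 14 times, or at 90.2, 0.474 and 0.592 CPM, and was thus high in replicate 1 and close to the limit of measurement in the others. Krt14 did not follow it to that limit, for the tumors with almost no Krt5 still had 174 and 74.0 CPM of Krt14. Krt13, a keratin of the inner squamous linings, was counted 5, 5 and 1 times, and with 95% exact Poisson limits its level was at most 0.513 CPM in any tumor, counting error only. Krt80 was even across the tumors at 77.1, 74.3 and 78.5 CPM.

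Of the transcription factors of the squamous lineage, Sox2 was steady at 27.0, 25.7 and 23.4 CPM. Trp63, which encodes p63, was low and uneven at 7.17, 1.59 and 2.88 CPM, and its length-scaled level was 1.47 ± 1.08 TPM (SD, n = 3). Pitx1 (34.8 ± 9.13 TPM) and Klf5 (49.9 ± 2.45 TPM) were higher on that scale. Of the 13 desmosome genes, 9 reached 1 CPM in all 3 tumors. Jup, which encodes plakoglobin, had 132 ± 17.7 TPM and Pkp1, a plakophilin of squamous cells, had 89.1 ± 30.0 TPM, whereas the squamous desmosomal cadherins Dsg3 (1.68 ± 0.208 TPM) and Dsc3 (1.42 ± 2.41 TPM) were scarce and Dsg2 had 42.7 ± 8.67 TPM. The label of squamous carcinoma was thus met by Krt14, Krt6a, Sox2 and Pkp1 in all 3 tumors, and not met by Krt5, Dsc3 and Krt1 in replicates 2 and 3. It was met only in part in replicate 1 too. Krt13 and the cornified envelope gene Ivl (0.968, 0.0862 and 0.0423 CPM) were under 1 CPM in all 3 tumors. Trp63 and Dsg3 were low in all 3.

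Genes of epithelial junctions were abundant and even. All 12 genes of the adhesion list reached 1 CPM in all 3 tumors, with a median highest-to-lowest fold of 1.23. Epcam had 781, 829 and 667 CPM, Cdh1, which encodes E-cadherin, had 272, 313 and 312 CPM, and Cldn4, a tight junction claudin, had 494, 568 and 576 CPM. Cdh2, which encodes N-cadherin, was at 0.704, 0.948 and 0.846 CPM. Vim (547, 468 and 407 CPM) and Fn1 (1388, 1758 and 1747 CPM) were also abundant, but both are made by host fibroblasts, and their source cannot be read from bulk RNA.

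Of the 8 lung lineage genes measured, 3 reached 1 CPM in all 3 tumors. Nkx2-1, the lung lineage transcription factor, was counted 2, 0 and 1 times, and Sftpc, which encodes a surfactant protein, 0, 0 and 0 times. Foxj1, the regulator of motile cilia, was 1 of those 3, with 68.9, 65.2 and 72.9 CPM. Muc1, a membrane mucin, had 144, 118 and 185 CPM and Cdx2, an intestinal transcription factor, had 4.71, 5.30 and 5.16 CPM.

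**Figure D1:**
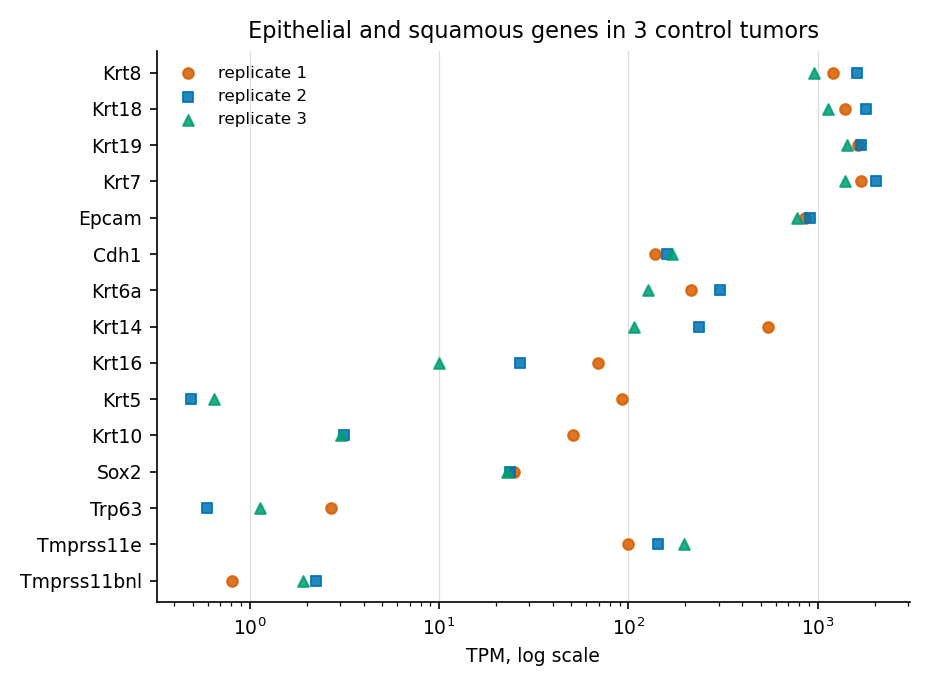
TPM (log axis) of 15 epithelial and squamous genes, with 1 point for each of the 3 control tumors. The simple keratins Krt7, Krt8, Krt18 and Krt19 lie to the right of Krt14 and Krt6a in every tumor, and Krt5, Krt10 and Krt16 are highest in replicate 1.

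Tmprss11b, a membrane serine protease and the gene targeted in the other tumors, is listed under its older symbol Tmprss11bnl. It was counted 18, 51 and 42 times, or at 0.807, 2.24 and 1.92 TPM. Its relative Tmprss11e was at 99.6, 144 and 198 TPM and was lowest in replicate 1 too. The membrane proteases St14 (153 ± 10.2 TPM) and Tmprss4 (72.3 ± 10.5 TPM) and their inhibitor Spint2 (417 ± 49.4 TPM) varied little. Tmprss11a, Tmprss11d and Tmprss11f each had under 1 TPM on average, so that of the Tmprss11 genes listed Tmprss11e held most of the signal.

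Among oncogenes and tumor suppressors, 20 of 21 reached 1 CPM in all 3 tumors and none differed 4-fold. Trp53 was at 195, 184 and 184 CPM and Cdkn2a at 231, 204 and 137 CPM. Myc was among the 10 steadiest of the 2572 genes averaging 100 CPM or more, at 145, 143 and 146 CPM. Ccnd1, which encodes cyclin D1, had 499 ± 56.4 TPM. Mdm2, whose product degrades p53, was far above the rest of this list at 1787, 1646 and 1688 TPM.

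Mdm2 lay in a run of highly expressed neighbours on chromosome 10. From Cnot2 to Mdm1 (GRCm38, chr10:116485160-118168999, RefSeq positions) 14 protein-coding genes averaging 1 CPM or more had a median of 272 TPM, against 26.5 TPM over all 13752 genes of that level. In this run 12 of 14 genes were above 100 TPM, which 14.8% of those 13752 genes were. The ends of the run were set with these levels known, so the median and the share only describe it. Cct2 was highest with 3761, 4839.6 and 4064 TPM, followed by Rap1b with 2730.0, 3223 and 2868 TPM and Lyz2 with 1616, 1712 and 2162 TPM. Lyz2 encodes the lysozyme of macrophages, whose other genes were also abundant here, and the source of its RNA was not tested. The lowest member was Best3 with 33.4, 45.9 and 42.0 TPM.

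The nearest expressed genes on either side were below that median. Kcnmb4, the neighbour before Cnot2, had 5.93, 5.71 and 3.62 TPM, and Ptprb, an endothelial phosphatase before it, had 4.33, 5.52 and 7.45 TPM. After Mdm1 came Ifng with 3.21, 4.27 and 6.95 TPM and then Dyrk2, which was above the median again with 69.6, 122 and 111 TPM. The run was alike in the 3 tumors, since none of its 14 genes differed 4-fold and its highest fold was 1.71. It took up 1.19, 1.36 and 1.21% of all counts. Among 13014 windows of 9 neighbouring expressed genes (median 27.8 TPM), the window from Cct2 to Nup107 had a median of 269 TPM and ranked second after non-overlapping windows were kept. The first, at 381 TPM, held the antigen presentation genes from Psmb9 to Notch4 on chromosome 17. This run was noticed after the values were seen, and DNA copy number was not measured in these libraries.

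**Figure D2:**
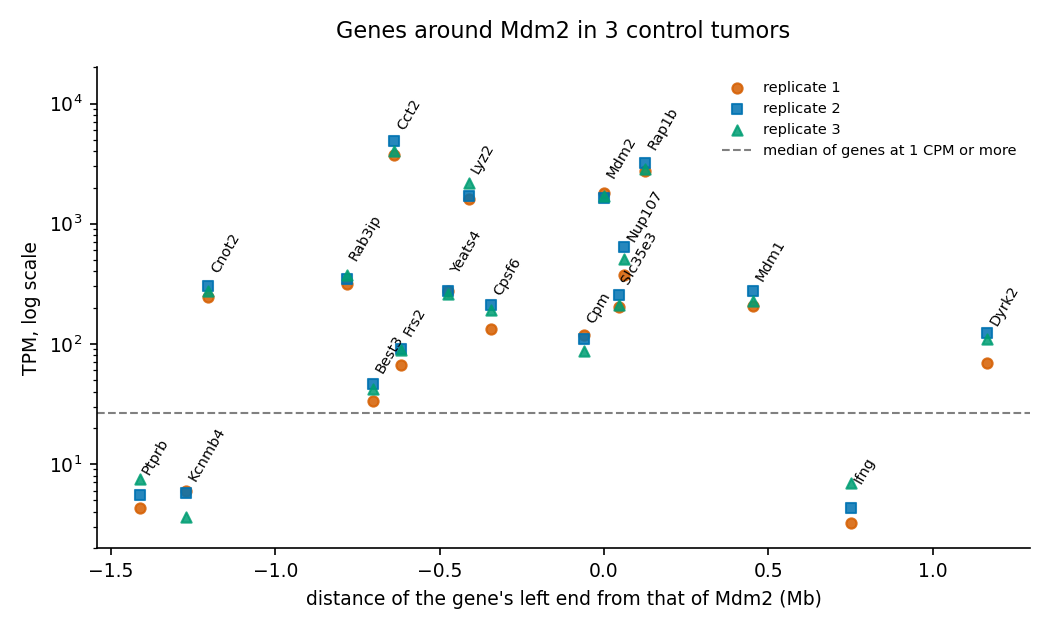
TPM (log axis) of each expressed protein-coding gene against the distance of its left end from that of Mdm2 in Mb, with 1 point per control tumor. The dashed line is the median of 26.5 TPM over all genes averaging 1 CPM or more. The genes from Cnot2 to Mdm1 lie above it in every tumor, and Kcnmb4, Ptprb and Ifng lie below it.

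Proteins that work as fixed complexes give a comparison for single genes of this run. Cct2 encodes 1 of the 8 subunits of the TRiC chaperonin, which folds actin and tubulin, and its TPM was 6.28, 6.25 and 6.39 times that of the next subunit, Cct5. The mean TPM of the other 7 subunits lay between 303 and 670, the last being that of Cct5. Nup107 was 1.82, 3.14 and 2.74 times Sec13, the next member of its nuclear pore subcomplex. Cnot2 was 2.32, 2.73 and 2.46 times Cnot7, the next of the other 9 subunits of the CCR4-NOT deadenylase measured. Cpsf6 was 1.61, 2.44 and 2.02 times Cpsf7, the higher of the other 2 subunits of a cleavage factor of mRNA ends. In each of these complexes the member encoded in the run was the highest in all 3 tumors.

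The same held for the pairs of related genes that were compared, though several genes of the run were given no partner. Rap1b was 34.5, 37.5 and 32.7 times Rap1a, both small GTPases of cell adhesion. Mdm2 was 64.8, 40.7 and 30.1 times Mdm4, its relative in p53 control. Frs2, an adaptor of fibroblast growth factor receptors, was 17.8, 22.9 and 21.7 times Frs3. Yeats4 was 12.1, 11.5 and 9.65 times Yeats2. These partners were picked after the run had been seen, so the ratios describe it and support nothing further.

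**Figure D3:**
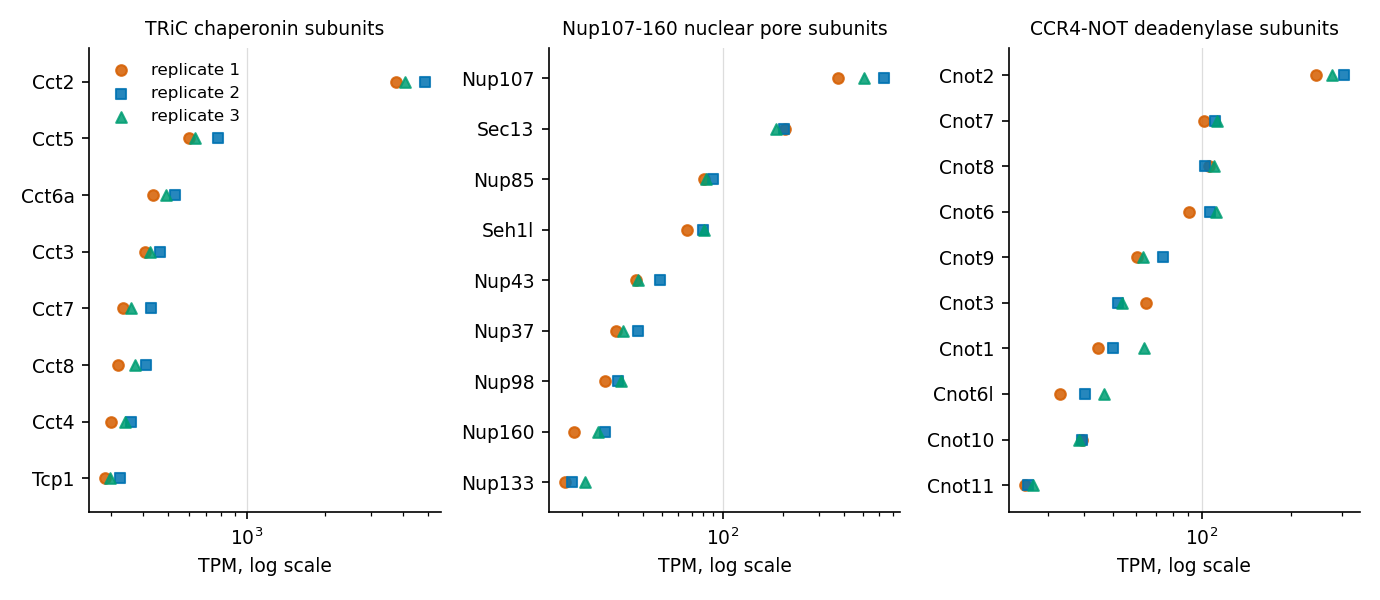
TPM (log axis) of the subunits of 3 protein complexes, with 1 point per control tumor and subunits ordered by mean. Cct2, Nup107 and Cnot2, the members encoded in the chromosome 10 run, are the highest of their complexes in each tumor.

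The 25 genes of highest TPM held 11.3% of all TPM, and 811 genes held the first 50% of it. Among them were 4 genes of antigen presentation, the invariant chain Cd74 at 5880.3 ± 760.1 TPM (SD, n = 3), B2m at 5289 ± 985 TPM and the class II genes H2-Aa at 2763 ± 196 TPM and H2-Ea-ps at 2927 ± 262 TPM. RefSeq gives H2-Ea-ps as a transcribed pseudogene, and whether it is one in the DBA/2 strain was not tested. Also among the 25 were the surface protein genes Ly6a (5473 ± 726 TPM) and Ly6e (2740.4 ± 182 TPM), Anxa1, which encodes annexin A1 (4401 ± 151 TPM), and Wfdc2, a secreted epithelial protein (3043 ± 299.7 TPM). Apoe had 5162 ± 598 TPM. Eef1a1, Tmsb4x, Actb, Cfl1, Gnb2l1, S100a6 and the ribosomal protein genes Rplp1, Rpl32, Rpl41 and Rps15 made up most of the rest.

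Part of that ranking belongs to entries named for RNAs other than mRNA. Mir5107 (10890.3 ± 1292 TPM) and Mir6236 (8239.6 ± 609 TPM) ranked first and second, Mir5121 (3202 ± 514 TPM) was also among the 25, and Rn45s, the ribosomal RNA precursor, had 5686 ± 630.2 TPM in these poly-A selected libraries. Mir5121 was counted 2809, 2331 and 2027 times, and its hairpin of 74 bases lies within Rpl13a, itself at 1864 TPM, so reads of the 2 cannot be told apart. Mir3064 overlaps Ddx5 in the same way. The hairpins are shown from RefSeq (GRCm38.p6), with the mature miRNAs in capitals, because their short length divides into the TPM. Mir5121 lies at chr7:45126918-45126991 on the minus strand and Mir3064 at chr11:106782693-106782759 on the minus strand.
Mir5121: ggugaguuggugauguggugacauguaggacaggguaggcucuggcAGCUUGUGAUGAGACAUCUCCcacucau
Mir3064: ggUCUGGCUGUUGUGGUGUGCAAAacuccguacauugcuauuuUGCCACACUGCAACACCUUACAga

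Some genes that every cell uses had low levels. Gapdh, the glycolytic enzyme often used as a reference, had 13.6, 14.2 and 11.1 TPM, while Aldoa, a step before it, had 1181, 1146 and 1255 TPM and Pkm 1704, 1739 and 1286 TPM. The ribosomal protein genes Rps6 (10.1 ± 0.764 TPM), Rpl3 (20.5 ± 1.74 TPM) and Rps18 (27.9 ± 3.38 TPM) stood beside Rpl4 (2525 ± 128 TPM) and Rplp1 (5715 ± 765 TPM). For these genes the share of 50-base stretches of the longest coding transcript that also occur in transcripts of another annotated gene was computed from GENCODE. It was 82.5% for Gapdh, 84.6% for Rps6, 85.6% for Rpl3, 86.7% for Rps18 and 16.5% for Rpl4. The relation was not strict, since Rplp1 had 60% and Ppia, low at 28.2 TPM, had 27.4%. Over 38 genes of the glycolysis, ribosomal and reference lists, the 11 with at least 50% shared stretches had a median of 50.9 TPM and the other 27 a median of 253 TPM. How the counting treated reads that match several places is not given in the sources used here, so low values of such genes are uncertain.

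The 3 tumors were alike for most genes. Across the 13752 genes averaging 1 CPM or more, the median fold from the lowest to the highest tumor was 1.26 and the common biological coefficient of variation was 21.1%. Past 4-fold were 392 of them, or 2.85%, and this count fell to 163 between replicates 1 and 2 alone. Across genes, log2(CPM + 1) of the tumors had Pearson's r between 0.965 and 0.979, a description over genes, which are not independent replicates. The steadiest genes above 100 CPM included Gosr2 (128, 129 and 129 CPM), a Golgi SNARE, and Flii (190.2, 188 and 189 CPM). Just under the threshold stood Scn7a at 3.98-fold and just past it Gfra2 at 4.02-fold.

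Replicate 3 differed most. It was at least 4-fold above both others in 183 genes (1.33%) and below both in 6 (0.0436%). Replicate 2 was below both others in 103 genes (0.749%) and above both in 4 (0.0291%), and 92 genes were at once apart above in replicate 3 and apart below in replicate 2. Replicate 1 was above both others in 59 genes (0.429%) and below both in 3 (0.0218%). By order alone, whatever the size of the difference, 36.9% of the expressed genes were highest in replicate 1, 30.7% in replicate 2 and 32.4% in replicate 3. The other 126 genes past 4-fold stood apart in no single tumor.

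Skeletal muscle genes made up the largest differences. All 17 genes of the muscle list were highest in replicate 3 by at least 4-fold over both others. All were lowest in replicate 2, though Myh7 only through scaling, with 4 counts in replicate 1 and 4 in replicate 2. Of the 17, 12 reached 1 CPM in all 3 tumors, and the others averaged 1 CPM through the tumors where they were high. Their median fold was 138, beside 1.26 over all expressed genes, and their direction was known when the list was drawn up. Summed over the list they gave 563, 47.6 and 4975 CPM. Acta1, skeletal alpha actin, had 134, 6.42 and 1165 CPM. The fast myosin heavy chain Myh4 had 67.8, 1.72 and 630.5 CPM and muscle creatine kinase, Ckm, had 39.6, 1.47 and 376 CPM. Replicate 1 therefore lay between the others for these fast-fiber genes.

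The slow-fiber gene Myh7 did not follow that order. Myh7, the slow myosin heavy chain, had 0.176, 0.172 and 77.3 CPM, a fold of 448 and the largest of all, and was as low in replicate 1 as in replicate 2. Myl2, its regulatory light chain, was counted 3, 1 and 661 times, too few in replicates 1 and 2 to order them. Tnnt1, slow troponin T, had 1.45, 0.431 and 35.9 CPM and kept the order of the fast genes.

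Genes of other structures were also highest in replicate 3. Lyve1, a lymphatic endothelial receptor, had 1.10, 1.51 and 9.60 CPM and Prox1, the lymphatic transcription factor, was counted 5, 0 and 23 times. Cd163, a scavenger receptor of resident macrophages, had 7.65, 3.41 and 19.3 CPM. The pan-endothelial Pecam1 (110.4, 83.4 and 102 CPM) did not move with them. Below both others in replicate 3 were Tnn, a tenascin (128, 42.3 and 8.20 CPM), and Crabp1, a retinoic acid binding protein (93.7, 27.4 and 5.58 CPM).

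**Figure D4:**
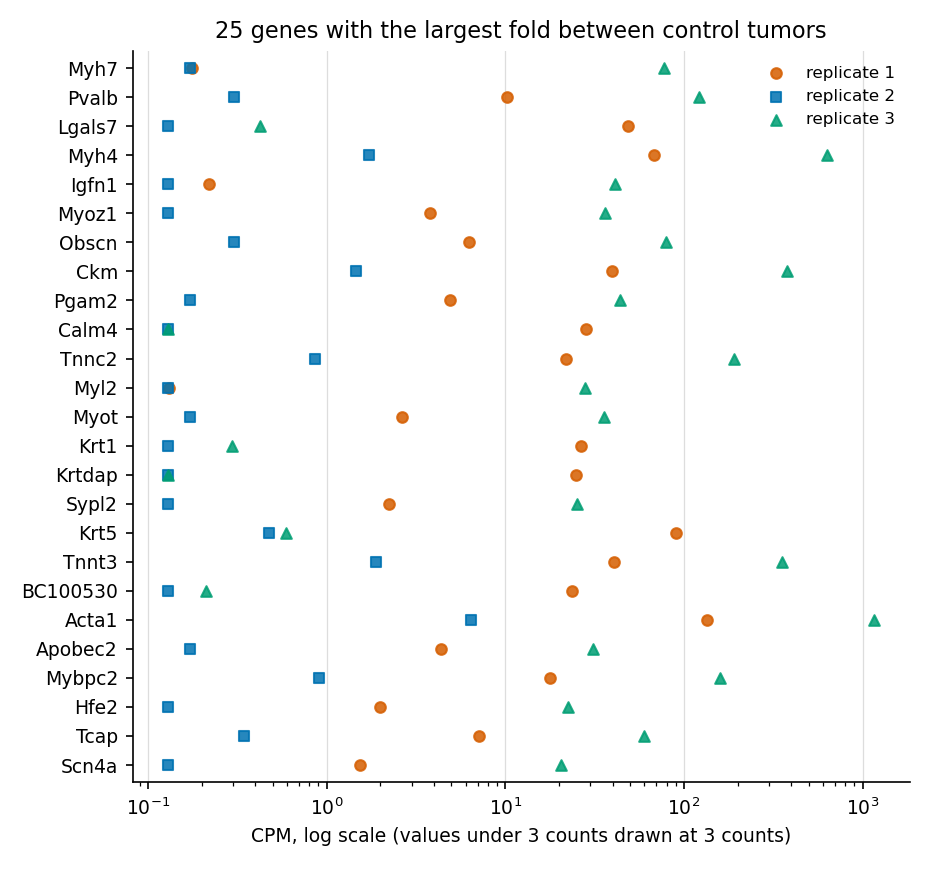
CPM (log axis) of the 25 genes with the largest fold between control tumors among those reaching 10 CPM, with 1 point per tumor and values under 3 counts drawn at 3 counts. Muscle genes such as Myh4 and Acta1 run from replicate 2 up to replicate 3, and Lgals7, Calm4, Krt1, Krtdap, Krt5 and BC100530 are high in replicate 1 alone.

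Replicate 1 was marked by genes of cornifying epidermis. Of the 22 genes of the cornified envelope list measured, 5 reached 1 CPM in all 3 tumors, and 7 more averaged 1 CPM only through replicate 1, so that no share of them is read. Krt1 and Krt10, the suprabasal keratin pair, had 26.6, 0 and 0.296 CPM and 47.2, 2.93 and 2.66 CPM. Loricrin, Lor, had 22.1, 1.34 and 1.86 CPM, Sbsn, suprabasin, had 21.2, 1.03 and 1.18 CPM and Krtdap had 24.8, 0.0431 and 0.0423 CPM. Lgals7, a galectin of stratified epithelium, had 48.7, 0.129 and 0.423 CPM, which is a fold of 377.

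Some basal and adhesion genes of stratified epithelium were highest in the same tumor. Beside Krt5, these included Col17a1, the hemidesmosomal collagen (14.9, 0.388 and 0.254 CPM), Dsc3 (9.94, 0 and 0.127 CPM) and Dsg1a (8.14, 0 and 0 CPM). Others did not share that order. Of the 12 epithelial adhesion genes, 8 were highest in replicate 2, beside 30.7% of all expressed genes, and 3 in replicate 1, beside 36.9%. Among the 8 were Itga6 (167, 204 and 188 CPM) and Itgb4 (393, 401 and 355 CPM). Tgm1, Evpl and Ppl, also of the cornified envelope, were present in all 3 tumors at 99.7, 88.7 and 46.2 CPM, 45.4, 39.7 and 34.9 CPM and 157, 135 and 151 CPM. Carcinoma cells and overlying skin cannot be told apart in these libraries as the source of Krt5 and Krt1. The hair keratins Krt25, Krt27 and Krt31 were at 0 to 2 counts in every tumor, and Krt75 was counted 34, 0 and 0 times.

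A TATA box stands before many genes that are switched on strongly in 1 cell type. The letters TATAAA were searched on the coding strand in the 60 bases before each RefSeq start (GRCm38.p6). They stood before 34 of 286 genes past 4-fold that had a promoter in the table (11.9%), before 199 of 10491 expressed genes under 4-fold (1.90%) and before 930 of all 27025 genes with a promoter there (3.44%). Among genes high in replicate 1 alone the share was 10 of 42 (23.8%), and among those high in replicate 3 alone 12 of 134 (8.96%). These are shares of letters in a window, not of sites in use. The 60 bases before a muscle gene and before 2 epidermal genes are shown, with TATAAA in capitals, for Myh4 (chr11:67237752-67237811, plus strand), Krtdap (chr7:30787845-30787904, plus strand) and Krt10 (chr11:99389365-99389424, minus strand).
Myh4: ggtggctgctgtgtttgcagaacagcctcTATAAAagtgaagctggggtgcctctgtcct
Krtdap: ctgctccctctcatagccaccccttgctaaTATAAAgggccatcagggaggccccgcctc
Krt10: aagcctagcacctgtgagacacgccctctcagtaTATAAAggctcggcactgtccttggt

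Macrophage genes were abundant. The 20 genes of the list summed to 13609, 12506 and 14831 TPM, of which Apoe, also made by other cells, gave 5263, 4520.5 and 5704 TPM. Lyz2, which lies in the chromosome 10 run, gave 1616, 1712 and 2162 TPM of that sum. The median fold of the list was 1.34, beside 1.26 over all expressed genes. The complement genes C1qa (1814 ± 162 TPM), C1qb (1456 ± 119.8 TPM) and C1qc (1327 ± 124 TPM) were high, Csf1r, the receptor for macrophage growth factor, was even at 288, 298 and 300.4 CPM, and Adgre1, which encodes F4/80 and is listed as Emr1, had 158, 177 and 191 CPM. Spp1, osteopontin, had 407, 740.0 and 739 CPM and was lowest in replicate 1. Arg1, the arginase of alternatively activated macrophages, had 24.4, 34.0 and 16.9 CPM and Chil3 0.308, 0.431 and 0.507 CPM. Of this list, only Cd163 was past 4-fold.

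Of the 13 neutrophil genes measured, 8 averaged 1 CPM or more. All 8 were highest in replicate 1, beside 36.9% of all expressed genes. S100a8 had 31.6, 8.58 and 6.68 CPM and S100a9 65.0, 24.4 and 13.3 CPM, and both were past 4-fold and highest in replicate 1. The granule genes Ngp, counted 6, 2 and 46 times, and Camp, counted 1, 0 and 18 times, averaged under 1 CPM and were highest in replicate 3. So did and were Mpo, counted 5, 3 and 15 times, and Elane, counted 2, 2 and 3 times. Retnlg, counted 27, 5 and 14 times, also averaged under 1 CPM but was highest in replicate 1. S100a8 and S100a9 are also made by epidermal keratinocytes, whose genes were high in the same tumor, and that part was not tested. Csf3r, the receptor for granulocyte growth factor, was nearly even at 70.6, 57.1 and 63.4 CPM. Ltf, lactoferrin, held most of the list's sum with 593, 281 and 498 CPM and is also made by glandular epithelium.

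Lymphocyte genes were scarce beside those of macrophages, and the 13 T cell genes measured summed to 143, 166 and 186 TPM. Cd3e had 9.10, 10.9 and 12.4 CPM, Cd8a 17.5, 24.5 and 27.2 CPM and Cd4 20.3, 15.4 and 18.4 CPM, and all 13 reached 1 CPM in all 3 tumors. Of the 11 cytotoxic genes, 10 were lowest in replicate 1, beside 35.8% of all expressed genes, among them Prf1 (3.56, 8.06 and 7.40 CPM) and Gzmb (4.66, 10.6 and 6.17 CPM). Eomes, a T-box factor of cytotoxic cells, had 25.1, 31.2 and 35.8 CPM, and the related Tbx21 had 2.55, 2.72 and 3.04 CPM. The B cell gene Ms4a1 was near the limit at 0.352, 0.172 and 1.40 CPM. Jchain, the joining chain of secreted antibodies, listed as Igj, had 21.4, 2.93 and 24.1 CPM and was low in replicate 2 alone. Sdc1 (1374, 1449 and 851 CPM), on the same list, is also an epithelial gene and held most of its sum.

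Interferon response and MHC class I genes were lowest in replicate 1. This held for all 15 genes of the interferon list, beside 35.8% of all expressed genes, and 9 of the 15 were highest in replicate 3, beside 32.4%. Cxcl9, a T cell chemokine, had 219.7, 344 and 439 CPM and Gbp2 387, 573 and 709 CPM. All 11 class I genes were lowest in replicate 1 too, with Nlrc5, their transcriptional activator, at 96.2, 135 and 213 CPM. The class II genes did not share 1 order. Cd74, at 3662, 3222 and 3939 CPM, and H2-Ab1, at 942, 892 and 979 CPM, were lowest in replicate 2. H2-Aa, at 1253, 1256 and 1336 CPM, was nearly equal in replicates 1 and 2. H2-Ea-ps was lowest in replicate 1 at 932, 1000 and 1050 CPM. Cd274, which encodes the checkpoint ligand PD-L1, had 54.3, 82.2 and 110.3 CPM. Ifng itself had 1.72, 2.28 and 3.51 CPM. None of these genes was past 4-fold, and the medians of the interferon and class I lists were 1.83-fold and 1.37-fold, beside 1.26-fold over all expressed genes.

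Stromal genes were abundant. Col1a1 had 1931, 1032 and 1069.7 CPM, Col3a1 1575, 842 and 1344 CPM and Postn, periostin, 709.8, 459 and 359 CPM. Of the 16 fibroblast genes, 12 were lowest in replicate 2, beside 29.8% of all expressed genes, and none was past 4-fold. Mmp13, a collagenase, had 1171, 1098 and 791 CPM, and the stromelysins Mmp3 (343, 119.9 and 64.4 CPM) and Mmp10 (72.3, 44.9 and 12.1 CPM) were past 4-fold and lowest in replicate 3. Of the 9 fat genes averaging 1 CPM or more, 7 were lowest in replicate 1, beside 35.8% of all expressed genes. Of the 7, Plin1 (0.748, 1.72 and 0.973 CPM) and Ucp1 averaged 1 CPM only through replicate 2, so that no share is read. Lipe, also of the 7, was nearly even at 23.7, 24.2 and 26.1 CPM. Among the 7 were Adipoq (1.80, 4.22 and 3.89 CPM) and Fabp4 (18.6, 41.4 and 33.7 CPM). The exceptions were Pparg (13.8, 11.2 and 8.29 CPM) and Plin4 (2.86, 2.41 and 8.04 CPM). Ucp1, the uncoupling protein of brown fat, was counted 0, 115 and 2 times and so was seen almost entirely in replicate 2. The mast cell genes Cma1 (11.6, 4.83 and 6.77 CPM) and Tpsb2 (9.02, 2.63 and 2.28 CPM) were highest in replicate 1.

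**Figure D5:**
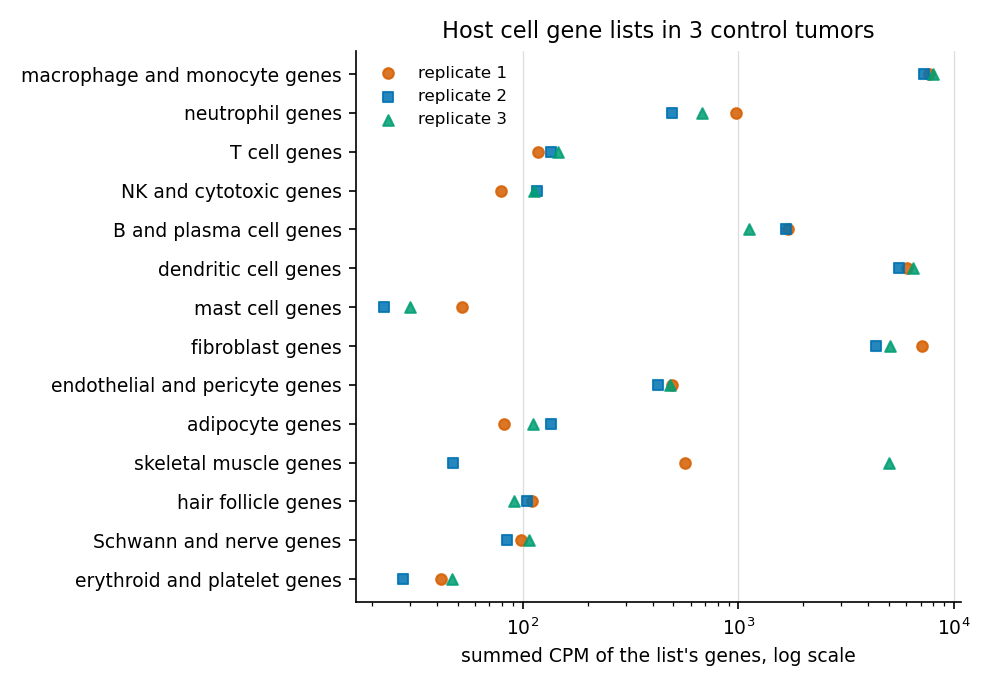
Summed CPM (log axis) of 14 lists of host cell genes, with 1 point per control tumor. The muscle list spreads furthest, from 47.6 CPM in replicate 2 to 4975 CPM in replicate 3.

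Replicate 2, with the least muscle RNA, had the highest levels of growth and low-oxygen genes. All 15 cell cycle genes were highest there, beside 30.7% of all expressed genes, though some by little, as Mcm5 at 116, 124 and 115 CPM. Larger differences were those of Mki67 at 162, 249 and 222 CPM and Top2a at 247, 445 and 385 CPM. Highest there too were 11 of 14 glycolysis genes and 10 of 12 hypoxia response genes. The glucose transporter Slc2a1 had 193, 267 and 128 CPM, Hk2 54.4, 131 and 85.8 CPM, Vegfa 213, 402 and 207 CPM and Ndrg1 156, 218 and 86.6 CPM. Car9, the carbonic anhydrase induced by low oxygen, is 1 of these 10 only by 48 counts against 47, and was even at 2.07, 2.07 and 1.82 CPM. None of these genes was past 4-fold. Median folds were 1.29 for the cell cycle, 1.39 for the glycolysis and 1.57 for the hypoxia list, beside 1.26 over all expressed genes. The part of the muscle RNA in the order of these genes was not tested.

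For lactate export, Slc16a1 had 48.8 ± 5.40 TPM, Slc16a3 19.8 ± 2.55 TPM and their chaperone Bsg, basigin, 544 ± 77.1 TPM. Ldha, which makes lactate, was at 1053 ± 203 TPM beside Ldhb at 17.8 ± 5.39 TPM. Of the NRF2 targets, Txnrd1 (210.0, 229.9 and 212 CPM) and Gclc (40.6, 40.2 and 39.4 CPM) were even, and Nqo1 was low at 1.23, 0.603 and 1.82 CPM.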

How the data were processed

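Poly-A RNA of 3 control tumors was sequenced from TruSeq Stranded mRNA libraries on an Illumina NextSeq after a RIN of at least 8. Per the submitters' processing notes, reads were processed with FastQC, STAR 2.5.3a, featureCounts and edgeR on mm10. The authors deposited raw counts per gene for 19481 genes. The authors also deposited TPM, which equalled each count divided by 1 fixed length per gene and then scaled per library, as checked in 13335 genes. The deposited CPM and 10 columns of the authors' own fold changes and p-values were not used. How multiply mapped reads were counted and the annotation version are not given in the sources used here.

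TMM factors and the biological coefficient of variation were computed from the 3 libraries alone in edgeR 4.0.16 (R 4.3.3), and tables and figures in Python 3.11.15 with pandas 2.3.3. The coefficient came from an intercept-only fit, so genes that stand apart in 1 tumor are part of it. The scripts were tested on simulated data. Values under 3 counts were set to 3 counts, so such folds are lower bounds. A gene was past 4-fold when its highest tumor was at least 4 times its lowest, among genes averaging 1 CPM or more, and apart in a tumor when 4-fold from both others. No p-value was computed. Replicates are separate tumors by their labels, intervals and floors cover counting error only, and reads carry no molecular identifiers.

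The members and the 41 gene lists (470 of 486 genes found, 2 by synonym) were chosen with earlier results of these data known. Some list members are not reported here. Named genes were the list members, the 25 of highest TPM, the 25 of largest fold reaching 10 CPM, up to 10 furthest apart per tumor and direction with a mean of at least 10 CPM, and the 10 of lowest variation above 100 CPM. The chromosome 10 genes and their partners, the slow-fiber genes, the miRNA hairpins and shared stretches were chosen after values were seen. Positions and sequences are from RefSeq GRCm38.p6, in which 18299 symbols matched directly and 1070 as synonyms. Alternatives were library totals, DESeq2 1.42.0 size factors, other filters, a pseudocount and each tumor left out.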

Additional observations from a re-analysis of the deposited data

How the results depend on the processing

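With library totals or DESeq2 size factors in place of TMM, the counts of genes detected, past 4-fold and apart in each tumor stayed within 1.5 times, and none of 74 folds of 37 named genes changed by more than a factor of 1.04. Counts depended on the filter. With at least 3 counts in 1 tumor as the only filter, 735 genes were past 4-fold and 154 apart in replicate 1. With a mean of at least 10 CPM, 95 were past 4-fold, and 5, 42 and 58 were apart in replicates 1, 2 and 3. With a pseudocount of 1 CPM in place of the floor, 259 were past 4-fold. With each tumor left out, genes past 4-fold ranged from 163 (without replicate 3) to 328, genes detected from 13237 to 13390, and the common coefficient of variation, 0.211 in all 3, from 0.187 to 0.240 (without replicate 2). Without a filter it was 0.279. The window of neighbouring genes on chromosome 10 had a median between 266 and 274 TPM and rank 2 with each tumor left out. With 5 genes it had 504 TPM but fell to rank 4, and with 15 genes it had 269 TPM and rank 1. These window sizes were chosen after seeing the data. Levels under 3 counts, about 0.13 CPM, are not distinguished from 0. No paired analysis was possible because there is 1 group and no test.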

Other observations

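Some further genes stood apart in 1 tumor and were picked after their values were seen. The imprinted RNA H19 had 39.2, 3.02 and 209 CPM and Mgp, a mineralization inhibitor of connective tissue, had 5.94, 4.70 and 24.5 CPM, both highest in replicate 3 and lowest in replicate 2. Fmod, a small proteoglycan of tendon and fascia, had 2.51, 3.79 and 18.1 CPM. Cxcl13, the B cell chemokine, had 77.8, 13.9 and 68.3 CPM and Pigr, the receptor that carries antibodies across epithelium, had 13.9, 0.733 and 8.58 CPM, each lowest in replicate 2, as was Jchain. Scgb1a1, the secretoglobin of airway club cells, was counted 10, 4 and 104 times.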
